A study of Mus musculus with 20 samples.

Results

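The transcription factors Nkx2-1, Lhx6, Lhx8, Dlx1, Dlx2, Dlx5, Dlx6 and Six3, which direct the formation of GABA neurons in the subpallium, the ventral part of the embryonic telencephalon, were followed in RNA of the mouse BNST (bed nucleus of the stria terminalis). The 8 genes were taken as a fixed list of names, out of 19214 genes in the count tables, and all 8 passed the filter on low counts that left 14884 genes for testing. The BNST is a small forebrain nucleus linked to the amygdala, the hypothalamus and the brain stem, and most of its neurons use GABA. Polyadenylated RNA was sequenced, with 20 libraries in all and 5 in each group: susceptible females, control females, susceptible males and control males. Susceptible mice belong to a model of anxiety that uses chronic restraint stress, that is, repeated confinement, and control mice carry only the label control. Strain, age, the length of the stress and the measure that made a mouse susceptible are not given in the labels. Separate animals for the libraries of 1 group are not stated, so a p-value here measures library-to-library spread, which may be technical. Libraries are called by group and replicate number, as in control female 1.

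As background, the subpallium is divided into eminences and a preoptic area, each marked by its own set of homeodomain factors. Nkx2-1 marks the medial ganglionic eminence and the preoptic area and switches on the LIM-homeodomain genes Lhx6 and Lhx8, of which Lhx6 is kept by many GABA interneurons and projection neurons and Lhx8 (also called Lhx7) by cholinergic neurons of the basal forebrain. The Dlx genes lie in convergent pairs, and Dlx1 and Dlx2 act before Dlx5 and Dlx6 in almost all forebrain GABA neurons. Six3, a sine oculis homeobox gene, acts early in the front of the neural plate and later in the lateral ganglionic eminence, the source of striatal neurons. The BNST receives neurons from the Nkx2-1 domain and from neighbouring domains, and part of these factors stay on in the adult.

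Total counts per library ran from 14863126 to 17621275 in susceptible females, from 15045809 to 17225841 in control females, from 14637636 to 16120613 in susceptible males and from 14758273 to 17862840 in control males. The 12 markers of the BNST list had counts in every library, but not all had many. Prkcd, a kinase of central extended amygdala neurons, had 19.2 to 349.5 CPM (counts scaled to library size). The peptide gene Nts had 7.43 to 51.1 CPM and Crh, the stress peptide, 3.92 to 13.8 CPM. Cyp19a1 (aromatase) had only 0.0660 to 1.40 CPM and Npffr2 only 0.111 to 0.873 CPM. Whether the RNA of these markers came from the BNST alone was not tested. Gad1 and Gad2, the enzymes that make GABA, stood at 457 to 893 CPM and 454 to 989 CPM. Markers of neighbouring tissue varied more. Ttr, the choroid plexus transporter, spanned 6.95 to 2000 CPM and was over 100 CPM in 7 libraries: susceptible females 1 and 3, control females 2 and 3, susceptible males 2 and 5 and control male 5. Pmch, the peptide gene of lateral hypothalamic neurons, spanned 0.0574 to 118 CPM and was over 1 CPM in 5 libraries: susceptible female 4, control females 1, 2 and 3 and susceptible male 5. This threshold does not take out all hypothalamic RNA. Over the 11 tested hypothalamic markers, mean log2 CPM was 3.89 to 4.51 in these 5 libraries. Under the threshold it was still 3.26 in control male 1 and 2.26 in control female 4. Slc17a7, the vesicular glutamate transporter of cortical excitatory neurons, spanned 11.1 to 719 CPM. In tissue RNA, fewer cells of a type and less RNA per cell cannot be told apart, and this holds for every level and difference given here.

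The sequences before the Lhx6 and Lhx8 start sites are shown because these 2 genes had the most closely shared pattern of levels in the data (RefSeq, assembly GRCm38.p6, both on the minus strand, bases outside the annotated gene, written 5′ to 3′). Capitals mark matches to the E box CANNTG, a motif of basic helix-loop-helix proteins, or to the NKX2 core CACTTNA.
Lhx6, chr2:36105409-36105658: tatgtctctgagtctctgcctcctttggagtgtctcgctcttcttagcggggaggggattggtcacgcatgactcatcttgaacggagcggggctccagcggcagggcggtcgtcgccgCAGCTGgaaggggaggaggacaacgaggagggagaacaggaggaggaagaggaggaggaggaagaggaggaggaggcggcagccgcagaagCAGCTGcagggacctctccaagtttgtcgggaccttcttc
Lhx8, chr3:154330660-154330810: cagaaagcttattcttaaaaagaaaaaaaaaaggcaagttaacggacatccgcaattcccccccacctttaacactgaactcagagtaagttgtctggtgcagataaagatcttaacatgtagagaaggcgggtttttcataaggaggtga
Lhx6, inner start site, chr2:36104178-36104204: gagccacgggTTAAGTGcagggagagg
RefSeq windows of 250 bases before a start site were at hand for 6 of the 8 genes, 8 windows in all. The motifs were searched on both strands. The homeodomain core TAATTA, which the 4 Dlx proteins can bind, stood in none of the 8 windows and in 4.84% of all 32851 windows. The shorter ATTA, which every TAATTA also holds, was found 3 times in the third Lhx6 window and 3 times in the Six3 window, and it stood in 54.9% of all windows. The CACTTNA match, on the opposite strand as TTAAGTG, lies before the third and innermost annotated start site of Lhx6, inside the gene, and 10.1% of all windows hold this motif. E boxes, found in 66.2% of windows, occurred 2 times in the first Lhx6 window, 2 times in the Dlx2 window and 1 time in the Nkx2-1 window. A match is a description of letters, and binding was not measured here.

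Nkx2-1 (chromosome 12, 56531958 to 56536908, minus strand, GRCm38), the earliest of the 8 in the medial lineage, was the member with the second lowest level per length, and 1 control library held its highest value. In replicate order, Nkx2-1 had 18.3, 11.9, 10.8, 17.9 and 3.89 CPM in susceptible females, against 22.7, 7.15, 6.30, 11.6 and 7.38 CPM in control females. It had 19.1, 14.5, 19.7, 16.6 and 13.8 CPM in susceptible males, against 11.2, 13.7, 14.03, 8.14 and 12.7 CPM in control males. Control female 1 was above every other library and the remaining 4 control females were at or below 11.6 CPM, so that the female groups overlapped over nearly their whole range. Of the susceptible males, 4 were above the highest control male of 14.03 CPM and 1 lay just below it. Means were 12.6 ± 5.92 CPM in susceptible females, 11.02 ± 6.83 CPM in control females, 16.7 ± 2.63 CPM in susceptible males and 11.97 ± 2.40 CPM in control males (SD, n = 5 each).

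Lhx6 (chromosome 2, 36081953 to 36105408, minus strand), which guides the migration and type of medial eminence neurons, was lowest in control females and highest in susceptible males. Lhx6 had 56.9, 44.8, 25.9, 47.4 and 21.1 CPM in susceptible females, against 9.01, 19.8, 23.9, 57.8 and 36.7 CPM in control females. In males it had 66.1, 45.7, 77.7, 81.6 and 38.5 CPM in the susceptible group, against 41.7, 50.4, 69.7, 43.5 and 49.4 CPM in the control group. Control female 1 was the lowest of the 20 libraries and susceptible male 4 the highest, a 9.06-fold range, and each pair of groups overlapped. Means were 39.2 ± 15.1 CPM in susceptible females, 29.5 ± 18.7 CPM in control females, 61.9 ± 19.1 CPM in susceptible males and 50.95 ± 11.1 CPM in control males (SD, n = 5 each).

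Lhx8 (chromosome 3, 154306294 to 154330659, minus strand), needed for the cholinergic neurons of the forebrain, had the widest range of the 8, 29.5-fold from its lowest to its highest library. Lhx8 had 26.3, 19.1, 10.8, 24.2 and 4.90 CPM in susceptible females, against 1.13, 7.26, 8.35, 25.4 and 15.1 CPM in control females. In males it had 29.6, 19.95, 32.4, 33.5 and 16.3 CPM in the susceptible group, against 16.8, 21, 25.1, 13.5 and 21.1 CPM in the control group. The lowest value rested on 20 counts, in control female 1, and the next lowest library, susceptible female 5, had 4.90 CPM. All 5 susceptible males were within the span of 16.3 to 33.5 CPM, while both female groups held libraries at 10.8 CPM or less. Means were 17.1 ± 9.04 CPM in susceptible females, 11.4 ± 9.22 CPM in control females, 26.3 ± 7.76 CPM in susceptible males and 19.5 ± 4.45 CPM in control males (SD, n = 5 each).

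**Figure D1:**
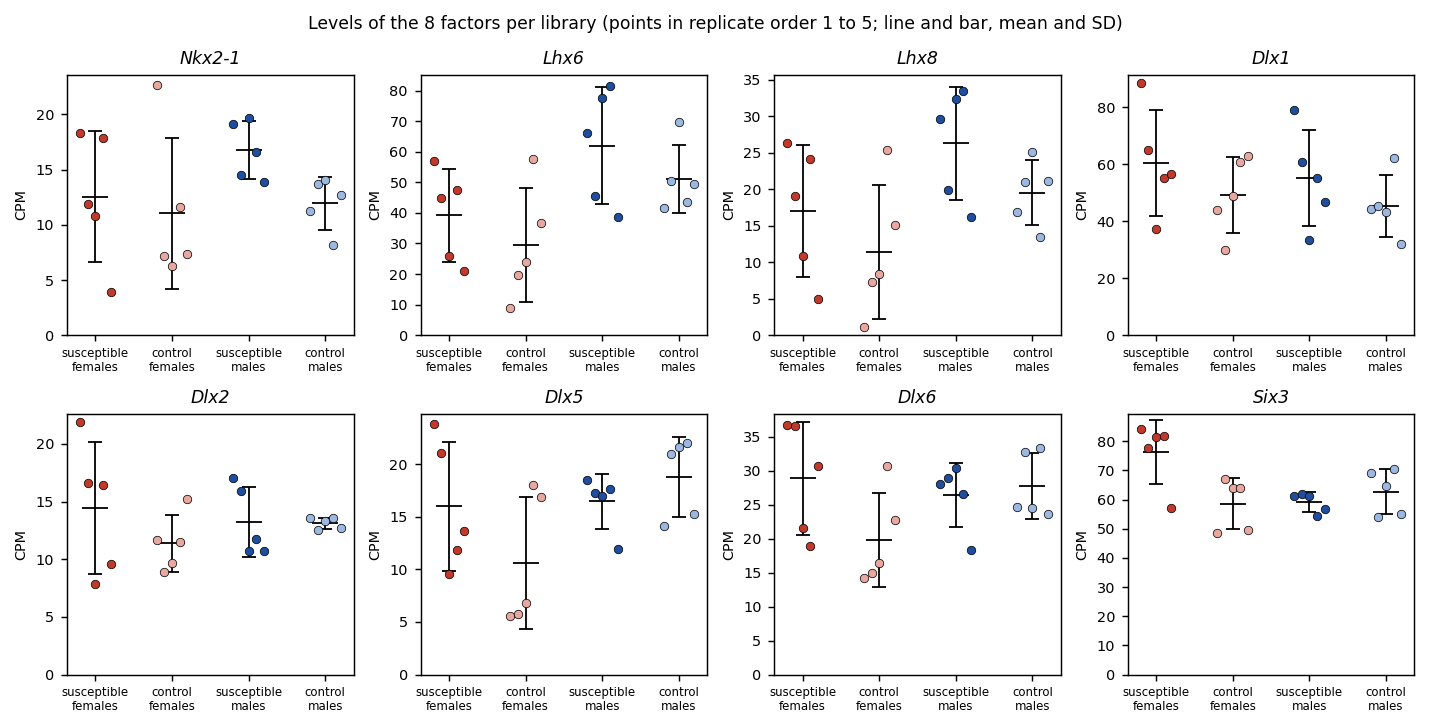
CPM of each of the 8 factors (y axis, linear from 0) in each library by group, with points in replicate order 1 to 5 and the group mean and SD as line and bar. Every pair of groups overlaps for every factor; the isolated points are control female 1 at 22.7 CPM of Nkx2-1, susceptible female 5 at 57.0 CPM of Six3 and susceptible male 5 at 11.9 CPM of Dlx5.

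Dlx1 and Dlx2 lie 9426 bases apart on chromosome 2 (71528113 to 71533981, plus strand, and 71543408 to 71546754, minus strand) and act early in GABA neuron precursors. In replicate order, Dlx1 had 88.5, 65.1, 37.3, 55.2 and 56.5 CPM in susceptible females, against 43.8, 29.9, 48.7, 60.8 and 62.7 CPM in control females. It had 79, 60.6, 33.5, 55.1 and 46.7 CPM in susceptible males, against 44.3, 45.3, 43.04, 62.1 and 31.97 CPM in control males. The ranges of the 4 groups overlapped widely, with susceptible female 1 and susceptible male 1 above all other libraries. The means of Dlx1 were 60.5 ± 18.6 CPM in susceptible females, 49.2 ± 13.4 CPM in control females, 55 ± 16.9 CPM in susceptible males and 45.4 ± 10.8 CPM in control males (SD, n = 5 each).

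Dlx2 had 21.9, 16.6, 7.82, 16.4 and 9.59 CPM in susceptible females, against 11.7, 8.87, 9.68, 11.5 and 15.3 CPM in control females. In males it had 17.1, 15.9, 10.7, 11.7 and 10.7 CPM in the susceptible group, against 13.5, 12.5, 13.3, 13.5 and 12.7 CPM in the control group. The 5 control males lay close together, and the other groups spread to both sides of them. For Dlx2 the means were 14.5 ± 5.74 CPM in susceptible females, 11.4 ± 2.46 CPM in control females, 13.2 ± 3.03 CPM in susceptible males and 13.1 ± 0.482 CPM in control males (SD, n = 5 each). The ratio of Dlx2 to Dlx1 counts had a median of 0.248 in susceptible females, 0.243 in control females, 0.230 in susceptible males and 0.305 in control males.

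Dlx5 and Dlx6 lie 9236 bases apart on chromosome 6 (6877805 to 6882085, minus strand, and 6863334 to 6868568, plus strand) and act later, in differentiating GABA neurons. In replicate order, Dlx5 had 23.8, 21.1, 9.56, 11.8 and 13.7 CPM in susceptible females, against 5.61, 5.76, 6.83, 18.1 and 16.9 CPM in control females. It had 18.5, 17.3, 17, 17.7 and 11.9 CPM in susceptible males, against 14.2, 20.9, 21.6, 22.02 and 15.3 CPM in control males. Control females split into 3 libraries between 5.61 and 6.83 CPM, those over 1 CPM of Pmch, and 2 at 16.9 and 18.1 CPM, and the male groups held no library under 11.9 CPM. The means of Dlx5 were 15.99 ± 6.15 CPM in susceptible females, 10.6 ± 6.28 CPM in control females, 16.5 ± 2.61 CPM in susceptible males and 18.8 ± 3.77 CPM in control males (SD, n = 5 each).

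Dlx6 had 36.7, 36.5, 21.5, 18.98 and 30.6 CPM in susceptible females, against 14.2, 14.98, 16.4, 30.7 and 22.7 CPM in control females. In males it had 28.02, 28.8, 30.3, 26.6 and 18.4 CPM in the susceptible group, against 24.7, 32.8, 24.5, 33.4 and 23.6 CPM in the control group. The same 3 control females were lowest for Dlx6, and susceptible females 1 and 2 were highest. For Dlx6 the means were 28.9 ± 8.28 CPM in susceptible females, 19.8 ± 6.96 CPM in control females, 26.4 ± 4.71 CPM in susceptible males and 27.8 ± 4.85 CPM in control males (SD, n = 5 each). The ratio of Dlx5 to Dlx6 counts had a median of 0.578 in susceptible females, 0.417 in control females, 0.649 in susceptible males and 0.648 in control males.

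Six3 (chromosome 17, 85613608 to 85629302, plus strand), a factor of the rostral forebrain and of striatal neurons, was the steadiest of the 8. Six3 had 84.1, 77.7, 81.5, 81.7 and 57.01 CPM in susceptible females, against 48.6, 67.1, 64.1, 64.1 and 49.6 CPM in control females. In males it had 61.2, 61.9, 61.4, 54.4 and 56.8 CPM in the susceptible group, against 69.2, 54.1, 64.7, 70.6 and 55.2 CPM in the control group. Of the susceptible females, 4 were above every library of the other groups, and the fifth lay within the range of the control females. Means were 76.4 ± 11.1 CPM in susceptible females, 58.7 ± 8.86 CPM in control females, 59.1 ± 3.35 CPM in susceptible males and 62.8 ± 7.73 CPM in control males (SD, n = 5 each).

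Annotated genes on the opposite strand overlap 4 of the 8, Gm26973 at Nkx2-1, Dlx1as at Dlx1, Dlx6os1 and Dlx6os2 at Dlx6, and Six3os1 and Gm28528 at Six3. None of these partners was listed in the count tables, and without a stated strand setting for the counting, reads of a gene and of its partner cannot be told apart.

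Per kilobase of exon, Six3 averaged 11.8 RPKM (CPM per kilobase), Dlx6 10.8, Dlx1 9.73, Lhx6 9.44, Lhx8 7.34, Dlx5 6.84, Nkx2-1 4.60 and Dlx2 4.57 RPKM over the 20 libraries. Lhx6 stood above Lhx8 in 20 of 20 libraries and Dlx5 above Nkx2-1 in 18 of 20. The order was less firm elsewhere: Six3 exceeded Dlx6 in 10 of 20 libraries, Nkx2-1 exceeded Dlx2 in 11 of 20, and each of the pairs Dlx6 and Dlx1, Dlx1 and Lhx6, and Lhx8 and Dlx5 kept its order in 13 of 20. As a spread between libraries of a group, the SD of log2 CPM was 1.003 for Lhx8, 0.65 for Lhx6 and 0.62 for Nkx2-1, against a median of 0.20 over all tested genes. Below the SD of Lhx8 lay 98.2% of tested genes, and below those of Lhx6, Nkx2-1 and Dlx5 lay 93.2%, 92.1% and 89.2%. Six3, with an SD of 0.19, was near the middle, with 47.4% of genes below it.

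Several of the 8 genes rose and fell together. Over the 20 libraries, the log2 CPM of all 28 pairs of members had a positive Pearson correlation, with a median r of 0.40, and 8 pairs passed a permutation test of r (100000 resamples, 2-sided, Benjamini-Hochberg adjusted over the 28 pairs, threshold 0.05). The same counts over all pairs of tested genes are not given here, so these are not set against a background. Lhx6 and Lhx8 were the closest pair (r = 0.970, Spearman's rho = 0.973, p = 1e-05, the smallest the resamples can give, adjusted p = 0.00014), and of the 14883 other genes tested none ranked higher than either for the other. Without the 2 libraries farthest from the median of Lhx6, r was 0.954, and on values centred within groups it was 0.962. The ratio of Lhx8 to Lhx6 counts had a median of 0.428 in susceptible females, 0.366 in control females, 0.422 in susceptible males and 0.404 in control males, and its lowest value, 0.126, was in control female 1.

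Dlx5 and Dlx6 followed (r = 0.901, rho = 0.850, p = 1e-05, adjusted p = 0.00014; r = 0.831 without the 2 libraries farthest from the median, 0.881 within groups). Dlx1 and Dlx2 had r = 0.713 and rho = 0.648 (p = 0.00042, adjusted p = 0.00235), with r = 0.748 within groups. This pair had r = 0.560 without the 2 libraries farthest from the median of Dlx1 (adjusted p = 0.0678). Dlx5 also moved with Lhx6 (r = 0.816, rho = 0.699, p = 8e-05, adjusted p = 0.000747; r = 0.663 without the 2 farthest libraries) and with Lhx8 (r = 0.743, rho = 0.611, p = 0.00037, adjusted p = 0.00235; r = 0.753 without the 2 farthest). The remaining pairs past the threshold were Lhx6 and Dlx6 (r = 0.643, rho = 0.514, p = 0.00201, adjusted p = 0.00938), Dlx2 and Dlx5 (r = 0.616, rho = 0.612, p = 0.00375, adjusted p = 0.015) and Lhx8 and Dlx6 (r = 0.577, rho = 0.447, p = 0.00581, adjusted p = 0.0203). In the permutation test of rho, Dlx6 did not pass with Lhx6 or Lhx8 (adjusted p = 0.0572 and 0.105). By r with Dlx6, Lhx6 ranked 1081 and Lhx8 1586 among the 14883 other genes, while Dlx6 ranked 197 for Lhx6 and 246 for Lhx8. Dlx2 ranked 1094 for Dlx5, and Dlx5 ranked 149 for Dlx2. On values centred within groups, Dlx5 passed the permutation test with Lhx6 (r = 0.765, adjusted p = 0.0122) and with Dlx1 (r = 0.697, adjusted p = 0.00511). With Lhx8 it did not (r = 0.658, adjusted p = 0.0841). Nor did Lhx6 and Dlx6 (r = 0.575, adjusted p = 0.113), Lhx8 and Dlx6 (r = 0.464, adjusted p = 0.298) or Dlx2 and Dlx5 (r = 0.599, adjusted p = 0.063). The r of these remaining pairs differed between subsets of libraries. Without the 2 farthest libraries, Lhx6 and Dlx6 had r = 0.370 (adjusted p = 0.333), Dlx2 and Dlx5 r = 0.554 (adjusted p = 0.0678) and Lhx8 and Dlx6 r = 0.618. Without control female 1 alone, Lhx6 and Dlx6 (r = 0.512) and Lhx8 and Dlx6 (r = 0.397) no longer passed, and without control female 2 the correlation of Lhx8 with Dlx6 (r = 0.546) and that of Dlx2 with Dlx5 (r = 0.552, adjusted p = 0.0514) did not. Libraries over 1 CPM of Pmch entered all of these values, and libraries under it can hold hypothalamic RNA too. Without the 5 libraries over 1 CPM of Pmch r was 0.955 for Lhx6 and Lhx8, 0.670 for Dlx5 and Dlx6, 0.682 for Dlx1 and Dlx2 and 0.731 for Dlx2 and Dlx5, all past the threshold. The other 4 pairs did not pass without them: r was 0.595 for Lhx6 and Dlx5 (adjusted p = 0.083), 0.507 for Lhx8 and Dlx5 (adjusted p = 0.17), 0.168 for Lhx6 and Dlx6 and 0.104 for Lhx8 and Dlx6. Without the 7 libraries over 100 CPM of Ttr, the pairs that passed were Lhx6 with Lhx8 and Dlx5 with Dlx6, and Dlx2 with Dlx5 had r = 0.218.

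Nkx2-1, the upstream gene of the medial lineage, showed a relation to Lhx6 and Lhx8 that differed with the libraries included. Over all libraries r was 0.366 with Lhx6 (permutation p = 0.111, adjusted p = 0.207) and 0.308 with Lhx8 (permutation p = 0.181, adjusted p = 0.316). By rank the relations passed: rho was 0.564 with Lhx6 and 0.614 with Lhx8 (permutation tests of rho, adjusted p = 0.0324 and 0.0203). Without control female 1, r was 0.824 with Lhx6 and 0.918 with Lhx8 (permutation tests over 19 libraries, adjusted p = 0.00014 and 9.33e-05), an exclusion chosen after the values were seen. It was close to this without the 5 libraries over 1 CPM of Pmch, control female 1 among them (0.831 with Lhx6 and 0.919 with Lhx8). In the other settings, which all kept control female 1, it was low: 0.159 and 0.048 without the 2 libraries farthest from the median, 0.164 and 0.108 on values centred within groups, and 0.201 and 0.169 without the 7 libraries over 100 CPM of Ttr, for Lhx6 and Lhx8 in this order. Control female 1 held 2.52 Nkx2-1 counts per Lhx6 count, against 0.185 to 0.418 in the other 19, and it had the highest Pmch level, 118 CPM. Whether the hypothalamic RNA in it raised its Nkx2-1, which hypothalamic cells also make, was not tested. With Dlx1, Dlx5, Dlx6 and Six3, Nkx2-1 had r between 0.036 and 0.196, and Six3 had r between 0.036 and 0.295 with every other member, none past the threshold.

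**Figure D2:**
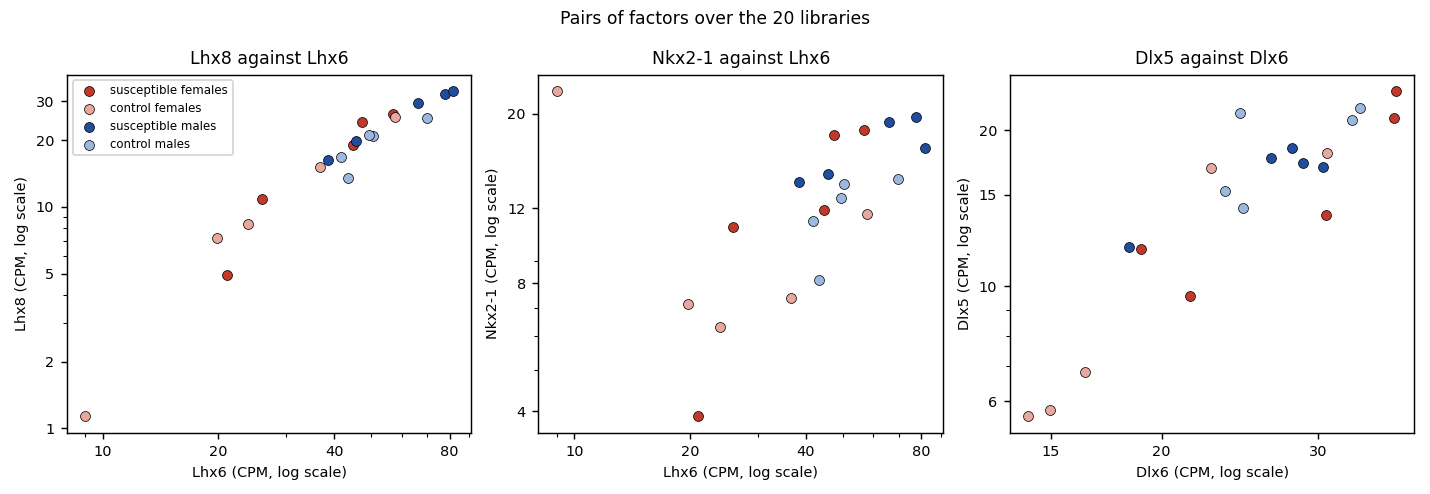
CPM of Lhx8 against Lhx6, Nkx2-1 against Lhx6 and Dlx5 against Dlx6 (both axes log scale), 1 point per library and coloured by group. Lhx8 rises with Lhx6 over the whole range (r = 0.970) and Dlx5 with Dlx6 (r = 0.901), while in the middle panel control female 1 lies alone at 9.01 CPM of Lhx6 and 22.7 CPM of Nkx2-1.

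The genes whose log2 CPM was most like that of each member over the 20 libraries, apart from the members, were taken as the 3 with the highest Pearson r. For Lhx8 they were the acetylcholine genes Slc18a3 (vesicular transporter, r = 0.952), Slc5a7 (choline uptake, r = 0.934) and Chat (choline acetyltransferase, r = 0.928). Chat spanned 2.89 to 38.0 CPM. For Lhx6 they were Slc10a4, a transporter of synaptic vesicles (r = 0.942), Gad2 (r = 0.914) and Slc18a3 (r = 0.911). Nkx2-1 was most like Dlk1, an imprinted gene for a Notch-related surface protein (r = 0.895, 40.1 to 222 CPM), Peg10, also imprinted (r = 0.858), and Mttp, a lipid transfer protein (r = 0.855). Dlx5 was most like Slc10a4 (r = 0.942), Prkar2b (r = 0.925), a regulatory subunit of protein kinase A, and Atp6v1c2 (r = 0.922), a subunit of the vacuolar proton pump. Dlx6 was most like Tmem158 (r = 0.935), Mpped2 (r = 0.929) and Fam78b (r = 0.914). The other three had Pim2, a kinase (r = 0.851), for Dlx1, the cation channel gene Trpc7 (r = 0.852) for Dlx2 and Lefty1 (r = 0.770) for Six3 in first place. Lefty1 was at 0.113 to 1.02 CPM, so that its counts were few.

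Some marker lists moved with the members, unequally. The lists were those of the BNST itself, of neighbouring tissue, of myelin and astrocytes, and of the lateral eminence and striatum. With the BNST score no member passed (r between -0.263 for Dlx6 and 0.503 for Nkx2-1). Each list was scored as its mean log2 CPM, and 11 of 64 relations between 8 members and 8 scores passed the permutation test of Pearson's r (100000 resamples, 2-sided, adjusted over the 64). The share of all tested genes that pass with these scores is not given here, so the 11 are not set against a background. The p-values that follow are those of r unless rho is named. Dlx5 and Dlx6 were lower where the thalamic score was higher (r = -0.818 and -0.806, rho = -0.549 and -0.623, permutation p = 6e-05 each, adjusted p = 0.00096 each). The same held for the hypothalamic score (r = -0.747 and -0.794, rho = -0.668 and -0.701, permutation p = 0.00016 and 5e-05, adjusted p = 0.00203 and 0.00096) and for the astrocyte score (r = -0.637 and -0.720, rho = -0.562 and -0.653, permutation p = 0.00244 and 0.00024, adjusted p = 0.0174 and 0.00219). Both rose with the score of 14 genes of the lateral eminence and striatum (r = 0.726 and 0.797, rho = 0.573 and 0.713, permutation p = 0.00045 and 1e-05, adjusted p = 0.0036 and 0.00064), a score added after the other values were seen. Nkx2-1 was lower where the score of cortical and hippocampal excitatory neurons was higher (r = -0.764, rho = -0.735, permutation p = 0.00019, adjusted p = 0.00203). Lhx6 with the thalamic score (r = -0.603, rho = -0.299, permutation p = 0.00449, adjusted p = 0.0287) and Dlx5 with the myelin score (r = -0.590, rho = -0.517, permutation p = 0.00621, adjusted p = 0.0361) completed the 11. In the permutation test of rho, Dlx5 did not pass with the thalamic, astrocyte, striatal and myelin scores (adjusted p = 0.0913, 0.0788, 0.077 and 0.127). Lhx6 with the thalamic score did not pass either (adjusted p = 0.439), and the others of the 11 did. Without the 2 libraries farthest from the median score, r was -0.769 and -0.798 for Dlx5 and Dlx6 with the thalamic score, -0.633 and -0.706 with the hypothalamic, -0.752 and -0.719 with the astrocyte and 0.609 and 0.726 with the striatal score. It was -0.729 for Dlx5 with the myelin score, -0.596 (adjusted p = 0.0547) for Nkx2-1 with the cortical score and -0.429 (adjusted p = 0.338) for Lhx6 with the thalamic score, which rests on those libraries. On values centred within groups, 6 of the 64 relations passed the permutation test, all among the 11. Dlx5 did not pass there with the striatal, astrocyte and myelin scores (adjusted p = 0.164, 0.213 and 0.328). Dlx6 with the astrocyte and Lhx6 with the thalamic score did not either (adjusted p = 0.149 and 0.207). Without the 5 libraries over 1 CPM of Pmch, 1 of the 64 relations passed, and Dlx6 had r = -0.491 with the thalamic and 0.412 with the striatal score (adjusted p = 0.283 and 0.414).

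**Figure D3:**
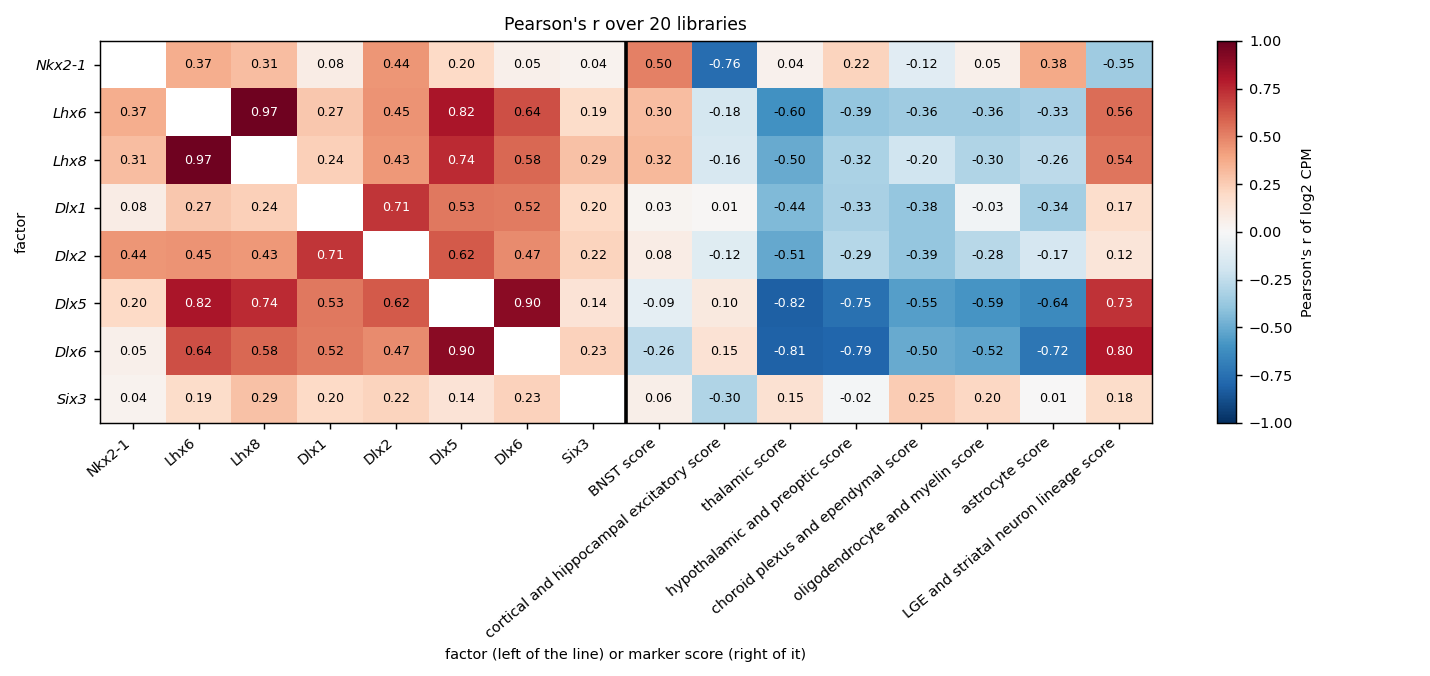
Pearson's r of log2 CPM over the 20 libraries, with the 8 factors as rows and, as columns, the 8 factors (left of the line) and 8 marker scores (right of it); LGE stands for lateral ganglionic eminence, and colour runs from -1 (blue) to 1 (red). The high blocks are Lhx6 with Lhx8 (0.97) and Dlx5 with Dlx6 (0.90), the low blocks Dlx5 and Dlx6 with the thalamic score (-0.82 and -0.81), and the values in the Six3 row run from -0.303 to 0.295.

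Susceptible females were set against control females to ask how restraint stress goes with these factors in females. No member passed the threshold (edgeR quasi-likelihood test, Benjamini-Hochberg over 14884 genes), and 0% of all tested genes did. All 8 estimates were above 0, with a median log2 fold change of 0.40, against 51.6% of all genes and a median of 0.01. The members vary together between libraries, so these are not 8 separate results. Six3 stood at 76.4 ± 11.1 CPM in susceptible females and 58.7 ± 8.86 CPM in control females (SD, n = 5 each), with a log2 fold change of 0.38 ± 0.11 (SE, edgeR adjusted p = 0.774). Dlx6 averaged 28.9 ± 8.28 CPM in susceptible and 19.8 ± 6.96 CPM in control females (log2 fold change 0.54 ± 0.22, edgeR adjusted p = 0.774). Estimates for the other six were 0.59 ± 0.32 for Dlx5, 0.59 ± 0.51 for Lhx8, 0.42 ± 0.37 for Lhx6, 0.34 ± 0.22 for Dlx2, 0.30 ± 0.25 for Dlx1 and 0.19 ± 0.35 for Nkx2-1 on the log2 scale (± SE). Unadjusted p-values under 0.05 were found for Six3 and Dlx6 and for 871 of all genes in this edgeR test, and DESeq2 and limma voom called 0 genes as well.

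No marker of any list passed in this comparison, and most estimates within each list named below had the same sign. Of the tested hypothalamic markers, 10 of 11 had estimates below 0, and their summed level spanned 7.40 to 459 CPM in susceptible and 12.3 to 468 CPM in control females. Of the thalamic markers 11 of 12 were below 0 (summed level 228 to 1704 CPM in susceptible and 237 to 1701 CPM in control females). All 12 myelin markers were below 0 (6245 to 8227 CPM in susceptible and 6247 to 10620 CPM in control females) and all 14 striatal genes above it (838 to 3676 CPM in susceptible and 290 to 1895 CPM in control females). No marker of these lists was at 0 in all libraries. Without the 5 libraries over 1 CPM of Pmch, which include 3 of the 5 control females, Lhx6, Lhx8 and Dlx5 had log2 fold changes of -0.34, -0.39 and -0.03. Dlx6 then had 0.23, Dlx1 0.0052, Dlx2 0.066 and Nkx2-1 0.25, and Six3 had 0.41. Without the 7 libraries over 100 CPM of Ttr, Nkx2-1 had -0.31, Dlx6 0.35 and Six3 0.41.

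In susceptible males against control males no member passed either, with 0% of all genes called, and 5 of 8 estimates were above 0 (47.5% of all genes), with a median of 0.15. The 3 genes of the medial lineage had the highest estimates: Nkx2-1 averaged 16.7 ± 2.63 CPM in susceptible and 11.97 ± 2.40 CPM in control males (SD, n = 5 each; log2 fold change 0.48 ± 0.35, edgeR adjusted p = 0.684), Lhx8 had 0.43 ± 0.50 and Lhx6 0.28 ± 0.37. Dlx1 had 0.28 ± 0.25 and Dlx2 0.01 ± 0.22. Below 0 were Dlx5 (-0.19 ± 0.32), Six3 (-0.09 ± 0.11) and Dlx6 (-0.07 ± 0.22). No member had an unadjusted p under 0.05, as had 1439 of all genes, and the smallest adjusted p of any gene was 0.405. DESeq2 called 24 genes and limma voom 689, none of them a member. DESeq2 gave an adjusted p to Six3 alone of the members (0.787, Wald test), so it could not have called the others. In this comparison all 11 hypothalamic markers (41.5 to 259 CPM in susceptible, 7.63 to 300.0 CPM in control males) and 10 of 12 thalamic markers (319 to 1560 CPM in susceptible, 239 to 801 CPM in control males) had estimates above 0, 10 of 12 cortical markers (97.6 to 363 CPM in susceptible, 154 to 875 CPM in control males) below it. All 12 myelin markers (median 0.33) and 9 of 12 BNST markers (median 0.42) were above 0 too. So were 8 of 12 choroid plexus and 6 of 10 astrocyte markers, while 12 of 14 striatal genes were below it. Without the 5 libraries over 1 CPM of Pmch the estimates were 0.56 for Nkx2-1, 0.58 for Lhx8 and 0.43 for Lhx6, and without the 7 over 100 CPM of Ttr 0.66, 0.74 and 0.56, none past the threshold. The part of these markers in the members' values was not tested beyond leaving libraries out.

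The difference of the stress effect, female minus male, was tested directly and passed for no member, with 0% of all genes called. Six3 alone of the 8 had an unadjusted p under 0.05 (difference in log2 fold change 0.47 ± 0.16, edgeR adjusted p = 0.587), followed by Dlx6 (0.62 ± 0.31) and Dlx5 (0.78 ± 0.45). Without the 5 libraries over 1 CPM of Pmch, Six3 had 0.46, Dlx6 0.19 and Dlx5 0.04. The differences for Lhx6 (0.13 ± 0.52), Lhx8 (0.15 ± 0.71) and Dlx1 (0.02 ± 0.35) were well under their standard errors and took the other sign in several subsets of libraries. Unadjusted p-values under 0.05 were found for 1230 genes, and DESeq2 and limma voom called 0.

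**Figure D4:**
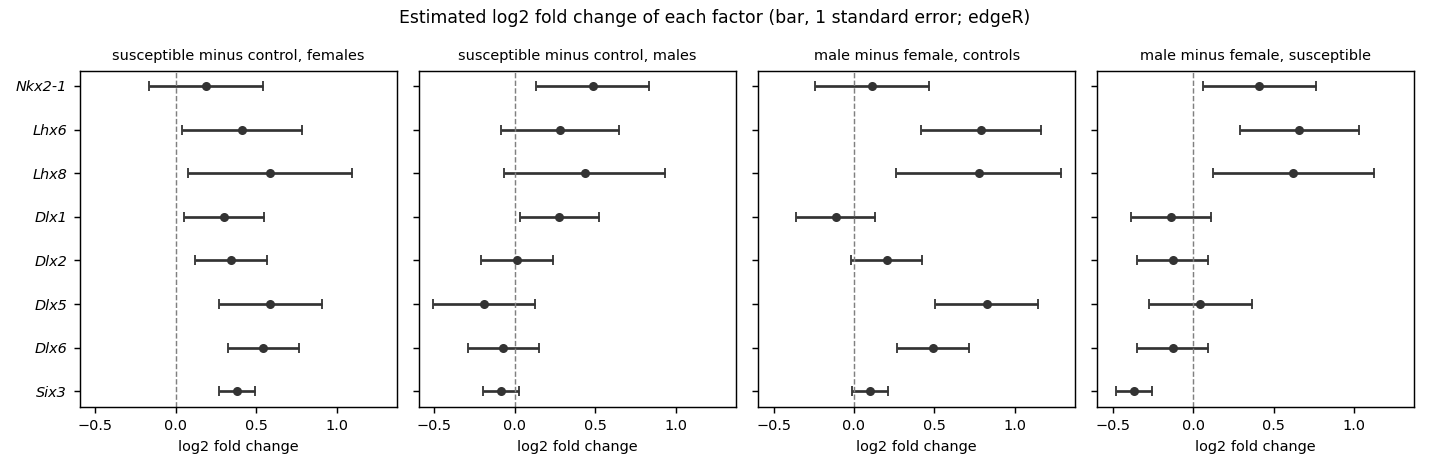
Log2 fold change of each factor (x axis) in 4 comparisons, with the estimate as a point and 1 standard error to each side as a bar, from the edgeR fit over all libraries. In females all 8 points lie right of 0, in males 5 do; Six3 lies at 0.38 in females and at -0.09 in males, and no estimate passed the adjusted threshold.

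Between the sexes, control males were compared with control females. No member passed in edgeR, with 0.511% of all genes called, and 7 of 8 estimates were above 0 (49.5% of all genes), with a median of 0.35. Dlx5 averaged 18.8 ± 3.77 CPM in control males and 10.6 ± 6.28 CPM in control females (log2 fold change 0.82 ± 0.32, edgeR adjusted p = 0.192). Lhx6 averaged 50.95 ± 11.1 CPM in control males and 29.5 ± 18.7 CPM in control females (0.79 ± 0.37, edgeR adjusted p = 0.254). Dlx6 followed with 0.49 ± 0.22 (edgeR adjusted p = 0.240), Lhx8 with 0.77 ± 0.51 and Dlx2 with 0.20 ± 0.22, while Nkx2-1 (0.11 ± 0.35), Six3 (0.10 ± 0.11) and Dlx1 (-0.12 ± 0.25) were near 0. Unadjusted p-values under 0.05 in this edgeR test were found for Dlx5, Dlx6 and Lhx6 and for 2862 of the 14884 genes tested. With limma voom and library quality weights, which give libraries unlike their group less weight, 4 members were called, Lhx6 (1.16, adjusted p = 0.0165), Lhx8 (1.43, adjusted p = 0.0325), Dlx5 (1.29, adjusted p = 0.00433) and Dlx6 (0.67, adjusted p = 0.0192), among 3324 genes in all, and DESeq2 called no member among 455 genes. Without the 5 libraries over 1 CPM of Pmch the estimates were 0.10 for Lhx6, -0.06 for Lhx8, 0.09 for Dlx5 and 0.05 for Dlx6. Hypothalamic markers were below 0 in 10 of 11 and thalamic markers in 11 of 12 cases in control males relative to control females, and their summed levels were 7.63 to 300.0 CPM (hypothalamic) and 239 to 801 CPM (thalamic) in control males, against 12.3 to 468 CPM and 237 to 1701 CPM in control females. All 12 myelin markers were also below 0, 1 of them called. So were 11 of 12 choroid plexus, 9 of 10 astrocyte and 7 of 12 cortical markers. All 14 striatal genes (median 0.85) and 6 of 12 BNST markers were above 0. The part of these lists in the members' values was not tested beyond leaving libraries out.

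In susceptible males against susceptible females no member passed, with 0.047% of all genes called, and 4 of 8 estimates were above 0 (44.5% of all genes). Six3 averaged 59.1 ± 3.35 CPM in susceptible males and 76.4 ± 11.1 CPM in susceptible females (SD; log2 fold change of -0.37 ± 0.11, edgeR adjusted p = 0.690). The lowest susceptible female, at 57.0 CPM, lay within the male range of 54.4 to 61.9 CPM. Lhx6 had 0.66 ± 0.37, Lhx8 0.62 ± 0.50 and Nkx2-1 0.41 ± 0.35, and the 4 Dlx genes lay between -0.14 and 0.04. Without the 5 libraries over 1 CPM of Pmch, Lhx6 had 0.87, Lhx8 0.91, Nkx2-1 0.63 and Six3 -0.33, none past the threshold. Estimates were below 0 for 11 of 12 cortical, 12 of 12 thalamic, 10 of 12 choroid plexus and 11 of 14 striatal genes. They were above 0 for 10 of 12 BNST, 8 of 12 myelin, 6 of 11 hypothalamic and 5 of 10 astrocyte markers. The part of these markers in the members' values was not tested beyond leaving libraries out. These sex comparisons share their libraries with the stress comparisons, so the values of Six3 in susceptible females enter both.

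Genes that act before, with or after the 8 factors were read from the same edgeR fits, and of 6 lists none had a member past the threshold in any of the 5 comparisons. The lists were chosen with earlier results of these data known. Among the 12 tested factors of ventral forebrain patterning, 6 had estimates above 0 in susceptible against control females and 3 in susceptible against control males. Gli2, a transcription factor of the hedgehog pathway, had -0.45 ± 0.15 in the female comparison (5.83 ± 0.967 CPM in susceptible, 7.97 ± 1.07 CPM in control females; edgeR adjusted p = 0.774). Shh, the hedgehog ligand that induces Nkx2-1 in the embryo, had 0.75 ± 0.31 in the male comparison (9.57 ± 1.78 CPM in susceptible, 5.70 ± 2.42 CPM in control males; edgeR adjusted p = 0.471). Of the 12 factors downstream of or acting with Dlx, 8 were above 0 in females and 8 in males, with Pbx3 at 0.46 ± 0.19 in females and Etv1 at 0.41 ± 0.15 in males.

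The 15 tested genes of the medial eminence interneuron lineage had 6 estimates above 0 in females and 7 in males. Kcnc1, a fast potassium channel of parvalbumin interneurons, had -0.30 ± 0.12 in females, and Npas1, a transcription factor of pallidal and interneuron types, had 0.53 ± 0.22 in males. For Npas1 the female minus male difference of the stress effect was -0.89 ± 0.31 (edgeR adjusted p = 0.587). Of the 8 forebrain cholinergic genes, 7 were above 0 in females and 8 in males, with medians of 0.34 and 0.23. Slc5a7 had 0.49 ± 0.34 in females, and Chat, in control males against control females, had 0.76 ± 0.35 (26.3 ± 5.37 CPM in control males, 15.6 ± 7.67 CPM in control females; edgeR adjusted p = 0.248).

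The genes of GABA identity Gad1 and Gad2, the enzymes of GABA synthesis, and Slc32a1, the vesicular GABA transporter, had estimates above 0 in all 5 comparisons. Gad2 averaged 692 ± 144 CPM in susceptible and 588 ± 155 CPM in control females (0.24 ± 0.17), and 867 ± 147 CPM in susceptible and 829.9 ± 88.2 CPM in control males (0.06 ± 0.17). Gad1 had 0.28 ± 0.14 in females and 0.06 ± 0.14 in males, and Slc32a1 0.27 ± 0.18 in females and 0.02 ± 0.18 in males. In control males against control females, Gad2 had 0.50 ± 0.17, Slc32a1 0.36 ± 0.18 and Gad1 0.32 ± 0.14. The 14 genes of the lateral eminence and striatum had estimates of different sign in the 2 sexes. In females 14 were above 0 (median 0.78, against 51.6% of all genes), and in males 2 (median -0.28, against 47.5%). In control males against control females 14 were above 0 as well (median 0.85), so the values of control females enter both. Whether the 14 vary together with the amount of striatal tissue was not tested. Foxp1, a factor of striatal projection neurons, had 0.79 ± 0.32 in females, and Zfp503 -0.39 ± 0.14 in males, with a female minus male difference of 0.64 ± 0.20 for Zfp503 (edgeR adjusted p = 0.587).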

How the data were processed

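Trizol-extracted RNA was made into polyadenylated RNA libraries and sequenced by Illumina HiSeq, per the labels' protocols. For each library the authors deposited read counts by gene, not normalized, and HISAT2 (aligner), featureCounts (counting) and mm10 stand in the submitters' processing notes. Versions, annotation and strand setting: not given in the sources used here. The files list whole counts for 19214 genes, 99.8% of them protein coding; 19206 were matched by identifier to a GENCODE annotation of GRCm38 for symbols, positions and exon length. Groups came from the sample titles. Totals of 14637636 to 17862840 counts per library set the precision.

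Counts were scaled by TMM, filtered with filterByExpr (14884 genes kept) and fitted for the 4 group means over the 20 libraries with the robust quasi-likelihood test of edgeR 4.0.16 under R 4.3.3, with Benjamini-Hochberg adjustment over all genes tested and a threshold of 0.05. A standard error is the size of the log2 fold change divided by the root of F. Levels are TMM-scaled CPM, and RPKM are these per kilobase of exon. Correlations used log2 CPM (prior count 2) and 100000 permutations. The code was tested on simulated counts. Chi-square tests of counts found no 2 libraries of a group alike within sampling noise. The named genes were the 8 members, in each list the 2 genes with the smallest p per comparison (a part of which is given) with the GABA identity genes (1 is not reported here), and the 3 genes most like each member. The members, lists, thresholds on Ttr and Pmch and tests were chosen with earlier results of these data known. Alternatives were DESeq2 1.42.0 (size factors, and its Wald test), limma 3.58.1 voom with quality weights, other count filters, a replicate block, a fit of only the groups compared, offsets for GC content and length (mgcv 1.9.3), leaving out libraries by Ttr or Pmch, and leaving out each library in turn. Sequences are from RefSeq.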

Additional observations from a re-analysis of the deposited data

Results flagged for a closer look

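Over 32 sets of values (8 genes in 4 groups of 5 libraries), 2 held a library far from the other four by Dixon's gap test, a test that flags about 1 in 20 sets by chance. Dlx5 had 11.9 CPM in susceptible male 5, against 17.0 to 18.5 CPM in the other susceptible males. That library also had over 1 CPM of Pmch and over 100 CPM of Ttr. Six3 had 57.0 CPM in susceptible female 5, against 77.7 to 84.1 CPM in the other susceptible females, and that library had the highest Slc17a7 level of the 20, 719 CPM. The part of these markers in the Dlx5 and Six3 values was not tested.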

How the results depend on the processing

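Of 1192 recomputed member estimates, 1140 kept their sign and their side of the threshold, 48 changed sign and 4 passed the threshold. The causes were not tested. Members called stayed at 0 except with limma voom (4 in control males against control females, where it called 3324 genes). Limma voom called 689 genes in susceptible against control males and 11 in susceptible males against susceptible females, where the members' median was 0.15, Dlx2 0.037 and Dlx6 0.0089. It gave Dlx2 -0.022 in susceptible against control males and Dlx1 0.015 in control males against control females. DESeq2 called 24 genes in susceptible against control males, where Six3 alone of the members had an adjusted p, 455 between control sexes and 15 between susceptible sexes. Control males against control females gave 76 genes with all libraries in the edgeR fit, 38 without a count filter, 19 with only the groups compared, 5 without Ttr libraries and 5 without Pmch libraries, and susceptible males against susceptible females gave 7, then 4 with only the groups compared, 4 without Ttr libraries and 13 without Pmch libraries. GC and length offsets gave Dlx1 -0.0104 in the female minus male difference and a median of 0.014 between susceptible sexes.

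Without the 7 Ttr libraries, Nkx2-1 was -0.31 in females and -0.24 between control sexes. The female minus male difference was -0.43 for Lhx6, -0.52 for Lhx8 and -0.13 for Dlx1, with 4 members above 0, and the median between susceptible sexes was 0.092. Without the 5 Pmch libraries, the female estimates were -0.34 for Lhx6, -0.39 for Lhx8 and -0.034 for Dlx5, with 5 members above 0, and Dlx6 was 0.047 in males. The female minus male difference was -0.77 for Lhx6, -0.98 for Lhx8, -0.34 for Dlx1 and -0.027 for Dlx2, with 3 members above 0 and a median of -0.17. Between control sexes Lhx8 was -0.061 and Dlx2 -0.039, and the median between susceptible sexes was 0.018.

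Pairs of members past the threshold numbered 8, then 5 within groups, 2 without Ttr libraries and 5 without the 2 farthest libraries. Relations to marker scores numbered 11, then 6 within groups and 1 without Pmch libraries, where Dlx5 had r = 0.0597 with the astrocyte score. Leaving out each library in turn gave 6 to 12 pairs and 8 to 18 relations to scores, the highest without susceptible female 5. These counts, like the counts of members above 0 and the medians, were recomputed by alternatives chosen after seeing the data.

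Leaving out each library also gave 0 to 2 genes called in females (2 without susceptible female 4), 6 to 458 between control sexes (6 without control female 3, 458 without control female 5) and 6 to 20 between susceptible sexes (20 without susceptible female 4). The female minus male difference ranged from -0.47 to 0.15 for Nkx2-1, from -0.10 to 0.53 for Lhx6, from -0.14 to 0.68 for Lhx8 and from -0.15 to 0.19 for Dlx1, with 4 to 7 members above 0. In males Dlx2 ranged from -0.095 to 0.080 and Dlx6 from -0.13 to 0.033, and between control sexes Nkx2-1 from -0.038 to 0.56. Between susceptible sexes Dlx1 ranged from -0.30 to 0.039, Dlx2 from -0.29 to 0.069, Dlx5 from -0.094 to 0.23 and the median from -0.15 to 0.15.

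With the replicate number as a block, 110 genes were called between control sexes and 4 between susceptible sexes, no member was called and Dlx2 was -0.0137 in males. Same-numbered libraries deviated together (r over 0.1) in 11 of 30 pairs, and the number correlated best with its own in 5, so the numbers were not taken to pair libraries. Depth limits Dlx2 (4176 counts over all libraries), Nkx2-1 (4204) and Dlx5 (4923), and Lhx8 in its lowest library (20 counts).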
